A study of Mus musculus with 12 samples.

Results

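The genes described here are 44 genes of DNA replication and S phase, a functional group whose members were found by symbol among the 27306 genes of the deposited table. They had 83 of the 56605 probes on the array. All 44 had at least 1 probe that could be tested, 76 probes in all, and 70 of these probes were well above background on all 12 arrays. RNA came from C2C12, an established myoblast line from C3H mouse muscle. Cells were transfected with siControl, a negative control siRNA, or with siBach1, a siRNA against the transcription repressor Bach1, and grown in medium with 10% fetal bovine serum. Confluent cells were moved to medium with 2% horse serum 24 hours after transfection, which starts their differentiation into myotubes, and RNA was taken without induction (day 0) or at day 2. Each of the 4 groups (siControl day 0, siBach1 day 0, siControl day 2 and siBach1 day 2) had 3 replicates. All groups were transfected, and the array study used 1 of the siRNAs made against Bach1, so that an effect of losing Bach1 and an effect of that siRNA sequence cannot be told apart. The sources used here do not say whether replicates were separate cultures, so the p-values measure only the spread between these samples.

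A cell copies its genome only in S phase. Before that, the origin recognition complex with the loaders Cdc6 and Cdt1 places the Mcm2 to Mcm7 helicase on origins, and the kinase of Cdc7 and Dbf4, with cyclin E kinase, lets Cdc45 and the GINS complex join it to form the active helicase. Polymerases, primase, the sliding clamp PCNA and its loader then copy the DNA, while nucleotide synthesis and histone chaperones keep pace. Most of these genes are known targets of E2F factors, which Rb proteins hold in check, and myoblasts leave the cell cycle and shut this programme down as they differentiate.

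Because E2F factors are known to control this group, the promoters were searched for the letters TTTCCCGC, TTTCGCGC, TTTGCCGC and TTTGGCGC on both strands. RefSeq promoter windows of assembly GRCm38.p6, which run from 250 bases before to 50 bases after a gene's start, were found for 36 of the 44 genes (42 windows). At least 1 of these 8-letter motifs was in 13 of the 42 windows (31.0%), against 3.41% of 14225 windows of all genes tested on the array, 2.26% of 32851 windows in the whole table and 1 of 24 windows (4.17%) of a list of mitosis genes. The letters CCAAT were in 54.8% of the members' windows, 37.7% of the windows of tested genes and 79.2% of those of mitosis genes. The letters TGACNNNGC, the core of the antioxidant response element that Bach1 and small Maf proteins are known to bind, were in 19.0% of the members' windows and 13.9% of those of tested genes. A match is a description of the sequence and was not tested as a binding site. Where 2 motifs of 1 set overlap, both were counted.

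The 200 bases before the start of 7 genes are shown 5′ to 3′, with the E2F letters in capitals. Mcm5, Mcm6, Cdc6, Orc1 and Pola1 are shown as genes of the helicase, its loading and the first polymerase that carry the motif, Gins3 because it carries the motif and yet changed least in differentiation, and Ccne1 because it holds no match and was the member that rose on silencing at day 0. They were chosen after these results were known. Their positions on GRCm38.p6 are Mcm5 chr8:75109309-75109508 (plus strand), Mcm6 chr1:128359706-128359905 (minus strand), Cdc6 chr11:98907951-98908150 (plus strand), Orc1 chr4:108579254-108579453 (plus strand), Pola1 chrX:93632156-93632355 (minus strand), Gins3 chr8:95633359-95633558 (plus strand), Ccne1 chr7:38107491-38107690 (minus strand).
Mcm5: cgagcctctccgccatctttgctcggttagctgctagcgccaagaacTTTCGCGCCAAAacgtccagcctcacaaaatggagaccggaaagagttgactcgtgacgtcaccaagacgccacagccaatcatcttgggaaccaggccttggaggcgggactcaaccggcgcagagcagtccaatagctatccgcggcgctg
Mcm6: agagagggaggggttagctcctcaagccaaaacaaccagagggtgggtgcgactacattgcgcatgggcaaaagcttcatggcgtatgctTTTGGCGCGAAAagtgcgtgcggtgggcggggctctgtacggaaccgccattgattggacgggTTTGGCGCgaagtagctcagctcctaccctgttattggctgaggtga
Cdc6: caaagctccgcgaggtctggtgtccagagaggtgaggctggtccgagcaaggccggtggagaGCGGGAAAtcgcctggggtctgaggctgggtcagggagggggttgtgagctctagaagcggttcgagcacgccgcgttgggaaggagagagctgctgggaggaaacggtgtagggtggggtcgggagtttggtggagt
Orc1: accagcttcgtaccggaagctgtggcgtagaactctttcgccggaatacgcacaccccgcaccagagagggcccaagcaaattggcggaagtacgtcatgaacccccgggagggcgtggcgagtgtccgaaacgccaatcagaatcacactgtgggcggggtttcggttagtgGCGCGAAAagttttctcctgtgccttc
Pola1: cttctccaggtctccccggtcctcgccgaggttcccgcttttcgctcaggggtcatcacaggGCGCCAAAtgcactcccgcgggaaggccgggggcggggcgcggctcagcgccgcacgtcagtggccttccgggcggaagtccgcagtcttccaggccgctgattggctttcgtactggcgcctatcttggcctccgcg
Gins3: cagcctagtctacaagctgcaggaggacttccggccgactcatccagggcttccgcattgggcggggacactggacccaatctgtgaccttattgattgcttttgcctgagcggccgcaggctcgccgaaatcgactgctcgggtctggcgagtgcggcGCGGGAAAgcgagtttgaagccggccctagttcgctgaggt
Ccne1: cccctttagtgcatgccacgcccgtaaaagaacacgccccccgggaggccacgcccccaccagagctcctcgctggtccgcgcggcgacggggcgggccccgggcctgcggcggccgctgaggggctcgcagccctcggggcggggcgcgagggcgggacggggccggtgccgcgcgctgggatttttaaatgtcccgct

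Mcm5 holds TTTCGCGC and, overlapping it on the other strand, TTTGGCGC. Mcm6 has 3 matches, Cdc6, Orc1, Pola1 and Gins3 have 1 each in the printed stretch, and Ccne1 has none. The 13 genes with a match had a median log2 fold change on silencing at day 0 of -0.48, and the 23 genes with a window but no match had -0.41. Between day 0 and day 2 of siControl cells the same sets had medians of -2.11 and -2.02. Both sets thus lay close to each other, and no difference between them was tested.

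Values below are log2 levels relative to the 75th percentile of the same array, taken from the scanner's background-subtracted signal, and a difference of 1 is a 2-fold change. They compare a probe between arrays and not different genes with each other. A gene was counted on its brightest tested probe, and it passed where the limma adjusted p over all 29664 tested probes was under 0.05. Silencing was checked first on its target. Bach1 was at 1.73, 1.55 and 1.78 in day 0 siControl cells and 0.18, -0.22 and -0.22 after siBach1, which is a change of -1.77 (SE 0.11, limma adjusted p = 1.2e-05), and the change at day 2 was -1.97 (SE 0.11). Hmox1, the haem oxygenase gene that Bach1 represses, rose by 3.30 at day 0 and by 3.12 at day 2. All 7 markers of differentiating muscle, among them Myog and Ckm, rose between day 0 and day 2 with either siRNA, with a median of 5.34 in siControl and 5.00 in siBach1 cells. All 7 lay lower at day 2 on every siBach1 array than on every siControl array, with a median of -0.52, and Myog (-0.98) and Actc1 (-0.75) passed. At day 0 none of the 7 passed. Of 4 tested markers of the muscle lineage, Cdh15 (0.45) and Chrna1 (0.27) passed as higher at day 0 and Myod1 (-0.48) as lower at day 2. Of 13 markers of macrophages, endothelium, adipocytes and epithelium, Adgre1, Adipoq, Cdh5, Epcam and Kdr were well above background on no array. The epithelial marker Krt8 (1.70, limma adjusted p = 0.026) passed as higher in siBach1 cells at day 0 and the macrophage marker Cd68 (-0.48, limma adjusted p = 0.018) as lower, and none of the 13 passed at day 2. Cdh1 was not well above background on any day 0 array and is given no day 0 fold. The summed linear level of all 13, in units of the array's 75th percentile, was 7.37 to 8.31 in siControl and 8.54 to 9.42 in siBach1 cells at day 0, and 5.26 to 7.89 and 4.99 to 8.01 at day 2. The part of these markers and of the muscle genes in the results was not tested. The 75th percentile signal was between 325.5 and 534.4 per array, and 47.6% to 58.9% of probes were well above background. Replicates 1 and 2 were on slide 1 and replicate 3 on slide 2, and each group had its own column of array positions on both slides, so that column and group cannot be told apart.

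The first comparison asked what silencing of Bach1 did to the replication genes of myoblasts without induction. At day 0, 42 of the 44 members were lower in siBach1 than in siControl cells, and the median log2 fold change was -0.42, a fall of 1.34-fold, against 0.08 over the 15642 genes tested. By limma 12 members passed as lower and Ccne1 passed as higher. Of all genes tested, 9.85% passed as lower and 10.1% as higher. In 35 members all 3 siBach1 arrays lay below all 3 siControl arrays, as in 17.8% of all genes, and in Ccne1 they lay above, as in 24% of all genes. A fall of at least 2-fold that passed was seen in Gins2 alone, against 2.24% of all genes. Levels on these arrays cannot tell fewer cells in S phase from less RNA per cell. With replicate as a block, which the check of pairing allows, 22 members passed as lower and Ccne1 as higher. The block also raised the share of all probes that passed, from 8.32% to 11.3% lower and from 8.8% to 16.2% higher.

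The fall was seen in every replicate. Taken within replicate numbers, the median difference between siBach1 and siControl at day 0 was -0.41, -0.37 and -0.43 in replicates 1 to 3, with 42, 42 and 41 of the members lower. Relative to the siControl day 0 mean, the median member stood at -0.05, -0.03 and 0.08 on the siControl arrays and at -0.45, -0.44 and -0.37 on the siBach1 arrays. Leaving out any of the 6 arrays lowered the count that passed to 6 or 7, and the share of all probes that passed fell as well, to between 5.93% and 7.09% lower and between 4.98% and 7.4% higher. Ccne1, Gins1, Gins2, Pola1, Prim1 and Rfc4 passed in all 6 of these fits, while Cdc6, Cdt1, Mcm2, Mcm5, Pold1 and Tk1 passed in none and Cdc45 in 1.

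**Figure D1:**
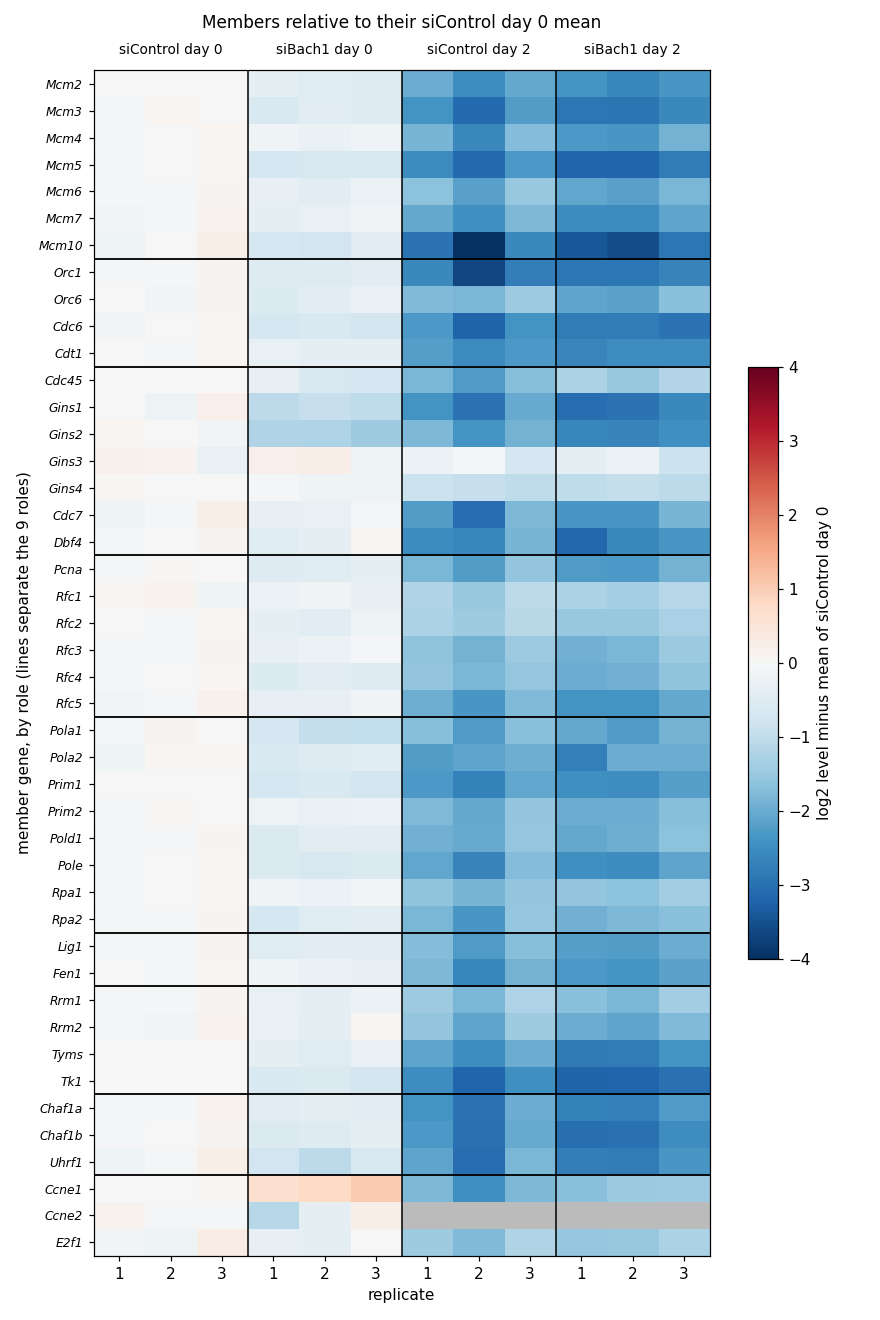
Log2 level of the 44 members (rows, by role) on the 12 arrays (columns, replicates 1 to 3 of each group) minus the mean of the 3 siControl day 0 arrays of that gene. All day 0 siBach1 columns are pale blue for most genes, with Ccne1 in red, and the day 2 columns are darker blue for nearly all genes, with Gins3 and Gins4 palest; grey cells mark Ccne2 at day 2, where it was not well above background.

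Of the helicase subunit genes, Mcm2 and Mcm5 passed as lower, by small amounts. Mcm5 was at 4.45, 4.53 and 4.60 in siControl and 3.82, 3.89 and 3.89 in siBach1 arrays of day 0. They did not overlap, and the gene changed by -0.66 (SE 0.19, limma adjusted p = 0.035). Mcm2 went from 3.84, 3.82 and 3.81 to 3.42, 3.34 and 3.31, a change of -0.46 (SE 0.13, limma adjusted p = 0.036). All 7 genes of the group, Mcm2 to Mcm7 and Mcm10, which helps the helicase to fire, had siBach1 arrays entirely below the siControl arrays, with changes between -0.66 and -0.21. Only Mcm2 and Mcm5 of them passed. Mcm10 had -0.65 with an SE of 0.31 (limma adjusted p = 0.18).

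Among the genes that load the helicase, Cdc6 and Cdt1 passed. Cdc6 was at 2.21, 2.35 and 2.41 in siControl and at 1.63, 1.71 and 1.60 in siBach1 cells, a change of -0.67 (SE 0.20, limma adjusted p = 0.042). A dimmer Cdc6 probe gave -0.82 (limma adjusted p = 0.12). Cdt1 changed by -0.34 (SE 0.10, limma adjusted p = 0.042). The origin binding genes Orc1 and Orc6 had -0.49 (limma adjusted p = 0.16) and -0.43 (limma adjusted p = 0.076), and in both the arrays of the groups did not overlap.

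The largest changes were in GINS, the 4-subunit complex that completes the active helicase. Gins2 was at 3.49, 3.40 and 3.30 in siControl and at 2.19, 2.15 and 1.99 on the siBach1 arrays of day 0. This was a change of -1.29 (SE 0.14, limma adjusted p = 0.00024), and its other probe gave -1.40 (limma adjusted p = 0.00019). Gins1 went from 2.84, 2.66 and 3.05 to 1.80, 1.94 and 1.82, a change of -1.0 (SE 0.22, limma adjusted p = 0.011), with -0.85 (limma adjusted p = 0.0094) on its other probe. The groups were far apart in both genes. The remaining subunits did not pass: Gins4 had -0.15 (SE 0.08, limma adjusted p = 0.21) and Gins3 had 0.10 (SE 0.22, limma adjusted p = 0.80). Subunits of 1 complex therefore had values from -1.29 to 0.10, and the difference between them was not tested. Cdc45, which joins GINS on the helicase, was at 0.83, 0.79 and 0.82 in siControl and 0.47, 0.18 and 0.13 in siBach1 cells, a change of -0.55 (SE 0.15, limma adjusted p = 0.031). Its second probe, A_55_P2017750, gave -0.41 (limma adjusted p = 0.068). The kinase genes Cdc7 and Dbf4 had -0.23 and -0.27 with overlapping arrays.

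Primase and polymerase alpha start each new strand, and the gene of the catalytic subunit of each passed as lower. Pola1, the catalytic subunit of polymerase alpha, was at 2.85, 3.05 and 2.93 in siControl and at 2.26, 2.00 and 1.96 in siBach1 cells at day 0. It changed by -0.88 (SE 0.17, limma adjusted p = 0.0055), and by -0.96 (limma adjusted p = 0.0018) on its other probe. Prim1, the catalytic subunit of primase, went from 4.50, 4.47 and 4.50 to 3.80, 3.88 and 3.75, a change of -0.68 (SE 0.14, limma adjusted p = 0.0083). Pold1, the catalytic subunit of the lagging strand polymerase delta, changed by -0.48 (SE 0.14, limma adjusted p = 0.043). In all 8 genes of polymerases, primase and the single-strand binding proteins Rpa1 and Rpa2 the groups did not overlap. The 5 others, Pola2, Pole, Prim2, Rpa1 and Rpa2, had changes from -0.61 (Pole, limma adjusted p = 0.061) to -0.16 (Rpa1, limma adjusted p = 0.33) and did not pass.

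Of the clamp and its loader, Rfc4 passed, with levels of 3.84, 3.85 and 3.94 in siControl and 3.34, 3.42 and 3.35 in siBach1 cells and a change of -0.51 (SE 0.11, limma adjusted p = 0.012). Its probe A_55_P2159801 gave -0.63 (limma adjusted p = 0.012). Its probe A_65_P19522 was at 2.69, 1.07 and 2.78 in siControl and at 2.02, 2.17 and 2.25 in siBach1 cells, so that 1 siControl array lay far below the others, and gave -0.03 (SE 0.37, limma adjusted p = 0.97). Pcna, the sliding clamp, was at 6.50, 6.59 and 6.57 in siControl and 6.03, 6.07 and 6.17 in siBach1 cells. Its groups were clear of each other, but its change of -0.46 (SE 0.16) had a limma adjusted p of 0.070. Rfc1, Rfc2, Rfc3 and Rfc5 had changes between -0.34 and -0.21.

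Tk1, the thymidine kinase of dividing cells, passed with 5.03, 5.04 and 5.03 in siControl, 4.42, 4.46 and 4.30 in siBach1 cells and a change of -0.64 (SE 0.17, limma adjusted p = 0.025). Its other tested probes gave -0.65 (limma adjusted p = 0.098) and -0.68 (limma adjusted p = 0.056). The other nucleotide genes did not pass: thymidylate synthase, Tyms, had -0.38 (limma adjusted p = 0.10), and the ribonucleotide reductase genes Rrm1 and Rrm2 had -0.29 and -0.19. Lig1, the ligase that seals Okazaki fragments, had -0.45 (limma adjusted p = 0.053) on its brightest probe and -0.68 (limma adjusted p = 0.0096) on A_66_P100721. Fen1, the flap nuclease of the same step, had -0.26 (limma adjusted p = 0.36). Uhrf1, which keeps DNA methylation through replication, had -0.81 (SE 0.28, limma adjusted p = 0.077) and on its other probe -0.88 (limma adjusted p = 0.026). The histone chaperone genes Chaf1a and Chaf1b had -0.41 and -0.50, with groups that did not overlap.

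Of the 3 G1/S regulators, Ccne1 alone went against the direction of the rest. Ccne1, which encodes cyclin E1, the partner of Cdk2 at S-phase entry, was at 3.79, 3.79 and 3.88 in siControl and at 4.47, 4.61 and 4.86 in siBach1 cells at day 0. All siBach1 arrays were higher, and the change was 0.82 (SE 0.17, limma adjusted p = 0.0088). Ccne2, the cyclin E2 gene, had -0.42 (SE 0.29, limma adjusted p = 0.37) and E2f1, the E2F activator, had -0.23 (SE 0.17, limma adjusted p = 0.41), both with overlapping arrays.

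**Figure D2:**
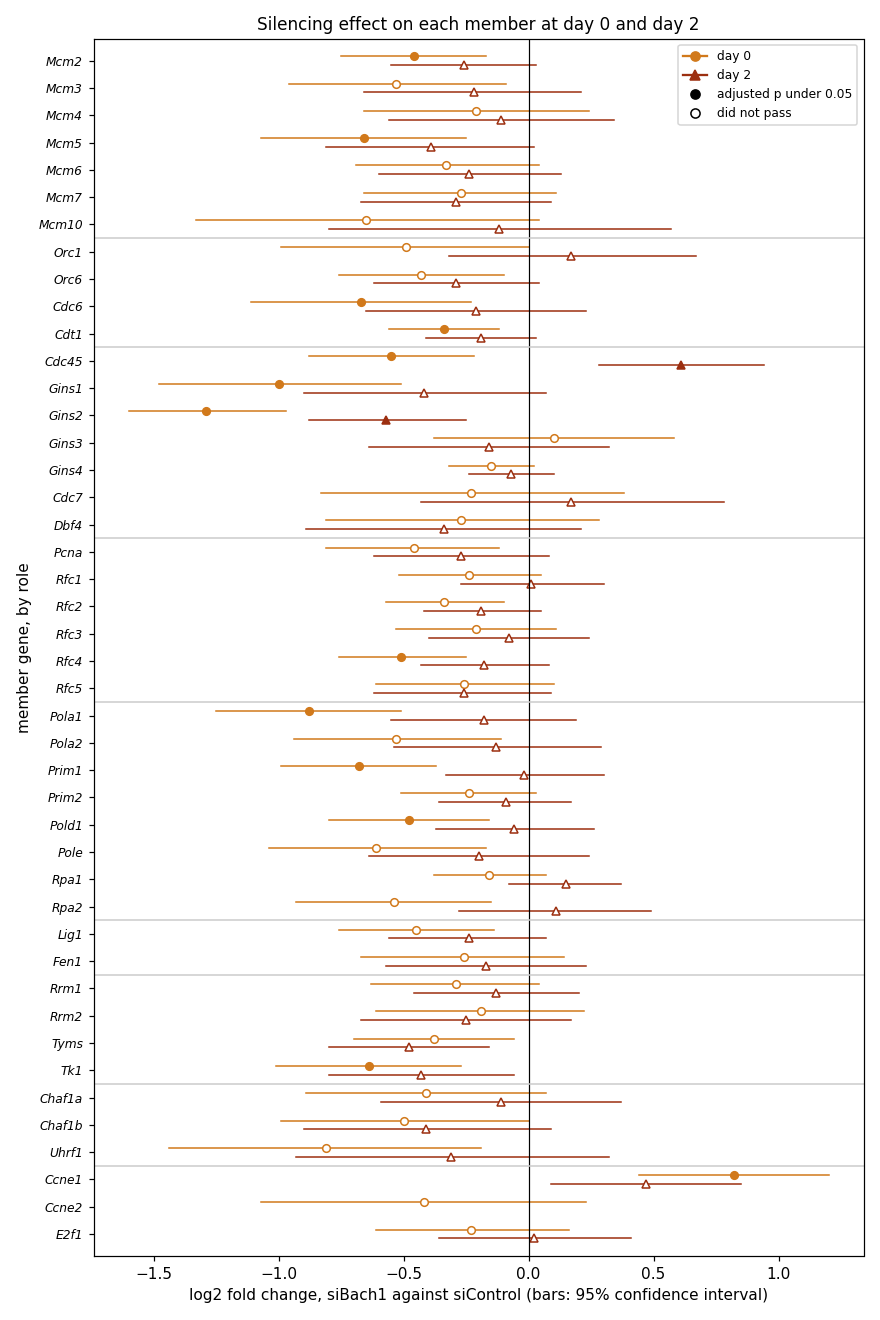
Log2 fold change of siBach1 against siControl for each member at day 0 (circles) and day 2 (triangles), with 95% confidence intervals from limma; filled symbols passed at an adjusted p under 0.05, and Ccne2 has no day 2 value because it was not well above background. Gins2 lies furthest left at -1.29 for day 0, Ccne1 furthest right at 0.82, and Cdc45 changes sides from -0.55 to 0.61.

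The second comparison asked the same of cells 2 days into differentiation. At day 2, where the muscle genes above were lower too, 36 members were lower in siBach1 than in siControl cells, the median was -0.19, against -0.03 over all genes tested, and by limma only Gins2 passed as lower and Cdc45 as higher. Of all genes tested, 7.4% passed as lower and 6.38% as higher. Ccne2 was not well above background on any day 2 array and is given no fold here, and without it 35 of 43 members were lower, with a median of -0.18. Among these 43 the arrays did not overlap in 1 member with siBach1 below, Gins2, against 19% of all genes, and in 2 with siBach1 above, Cdc45 and Ccne1, against 15.6%. With replicate as a block 3 members passed as lower, which were Gins2, Tyms and Orc6, and Cdc45 as higher, while 11.6% of all probes passed as lower and 9.78% as higher.

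The count at day 2 turned on 1 control array. Relative to the siControl day 0 mean, the median member stood at -1.89, -2.41 and -1.78 on siControl day 2 replicates 1 to 3 and at -2.32, -2.34 and -1.99 on the siBach1 day 2 arrays. Replicate 2 of siControl was the lowest of the 3 control arrays in 41 of the 44 members. Within replicate numbers the median difference was -0.41 and -0.22 in replicates 1 and 3, with 41 and 40 members lower, and 0.04 in replicate 2, with 18 lower and 26 higher. Without siControl day 2 replicate 2, 41 members were lower and 12 passed, all of them lower: Mcm2, Mcm3, Mcm5, Mcm6, Cdc6, Gins1, Gins2, Tyms, Tk1, Lig1, Fen1 and Chaf1b. In that fit 5.76% of all probes passed as lower and 4.55% as higher. That array was singled out after its values were seen. Without 1 of the other day 2 arrays the count was 0 to 2. It was 0 without siControl replicate 1 or siBach1 replicate 1, and 1 (Cdc45) without siBach1 replicate 2 or siControl replicate 3. Without siBach1 replicate 3 it was 2 (Gins2 and Tyms). In these fits 2.91% to 4.6% of probes passed as lower and 3.2% to 4.27% as higher, against 6.26% and 5.75% with all arrays.

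**Figure D3:**
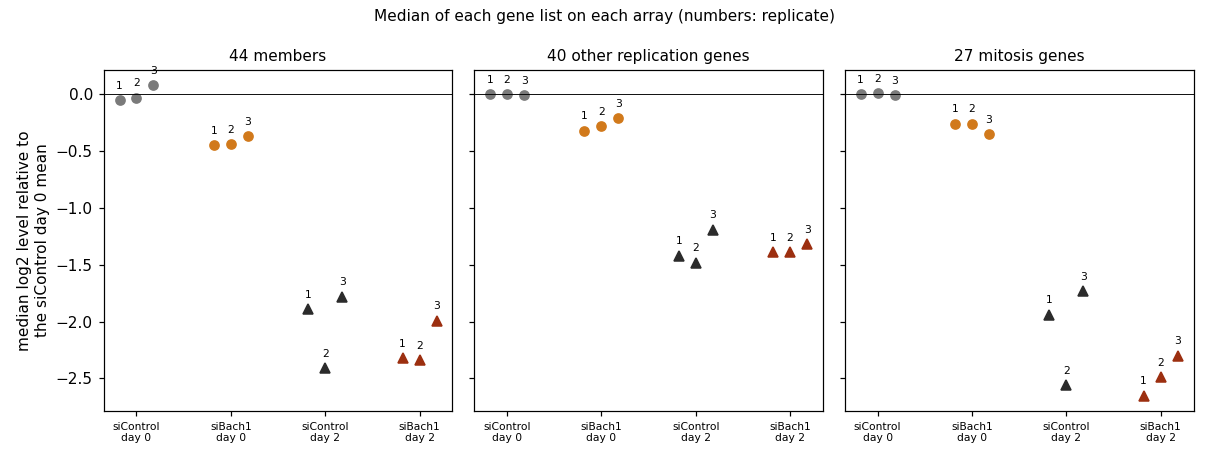
Median log2 level of the 44 members, of 40 other replication genes and of 27 mitosis genes on each array, relative to the siControl day 0 mean of each gene; symbols are arrays and numbers are replicates. On siControl day 2 replicate 2 the median member is at -2.41, below the -1.89 and -1.78 of the other siControl day 2 arrays.

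Gins2 was the member that passed as lower at both days. At day 2 it was at 1.60, 1.03 and 1.51 in siControl and at 0.79, 0.71 and 0.93 in siBach1 cells. Every siBach1 array was below every siControl array, and the change was -0.57 (SE 0.14, limma adjusted p = 0.029), with -0.57 (limma adjusted p = 0.034) on its other probe. It passed in the fits without siControl replicate 2 (-0.74, limma adjusted p = 0.0040) and without siBach1 replicate 3 (-0.63, limma adjusted p = 0.047), and had limma adjusted p-values of 0.088 to 0.098 without each of the other arrays. The other GINS genes did not pass, with -0.42 for Gins1 and -0.16 for Gins3.

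Cdc45 stood on the other side. It was at -1.03, -1.44 and -0.88 in siControl and at -0.46, -0.69 and -0.37 in siBach1 cells at day 2, higher on every siBach1 array, and the change was 0.61 (SE 0.15, limma adjusted p = 0.027). The second Cdc45 probe, A_55_P2017750, had -2.22, -2.78 and -2.43 in siControl and -2.35, -2.38 and -2.40 in siBach1 cells, with overlapping arrays and a change of 0.10 (limma adjusted p = 0.70). The rise thus passed on 1 of 2 probes, and with the mean of both it was 0.35 (limma adjusted p = 0.10). On the first probe it passed without siBach1 replicate 2 (0.70) and without siControl replicate 3 (0.73), and did not pass without each of the other 4 day 2 arrays, with 0.45 without siControl replicate 2 (limma adjusted p = 0.060) as the smallest value.

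Lig1 also differed between probes, but there the dimmer probe passed, with -0.24 (limma adjusted p = 0.30) on its brightest probe and -0.73 (limma adjusted p = 0.011) on A_66_P100721 at day 2. Ccne1 was at 2.02, 1.38 and 2.03 in siControl and 2.15, 2.33 and 2.37 in siBach1 cells, again higher on all siBach1 arrays, but its change of 0.47 (SE 0.17) did not pass (limma adjusted p = 0.11). The genes of polymerases, primase and Rpa had day 2 changes between -0.20 (Pole) and 0.15 (Rpa1), and those of the Mcm group between -0.39 (Mcm5) and -0.11 (Mcm4).

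Whether silencing acted differently at day 2 than at day 0 was tested directly, as the day 2 effect minus the day 0 effect. This value was positive in 36 members, with a median of 0.21, against -0.07 over all genes tested. Without siControl day 2 replicate 2 the median was 0.05 and 13 members were negative, against 8 with all arrays. By limma 1 member passed, Cdc45 at 1.16 (SE 0.21, limma adjusted p = 0.018). Of all genes 3.08% passed with a more positive effect at day 2 and 2.74%, but no member, with a more negative one. Cdc45 changed by -0.55 at day 0 and by 0.61 at day 2. Its second probe had a difference of 0.51 (limma adjusted p = 0.16). Gins2 had 0.72 (SE 0.20, limma adjusted p = 0.071), Pola1 0.69 (SE 0.24, limma adjusted p = 0.12) and Prim1 0.67 (SE 0.20, limma adjusted p = 0.086). With replicate as a block Gins2 and Prim1 passed as well, at limma adjusted p-values of 0.041 and 0.047, and Cdc45 had 0.0097, while 5.16% of all probes passed with a more positive and 7.86% with a more negative effect. The difference of Cdc45 had a limma adjusted p of 0.052 without siBach1 day 2 replicate 1 and passed without each of the other 11 arrays. Prim1 passed beside it without siControl day 2 replicate 3. For the other members the day 0 and day 2 effects were not shown to differ.

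**Figure D4:**
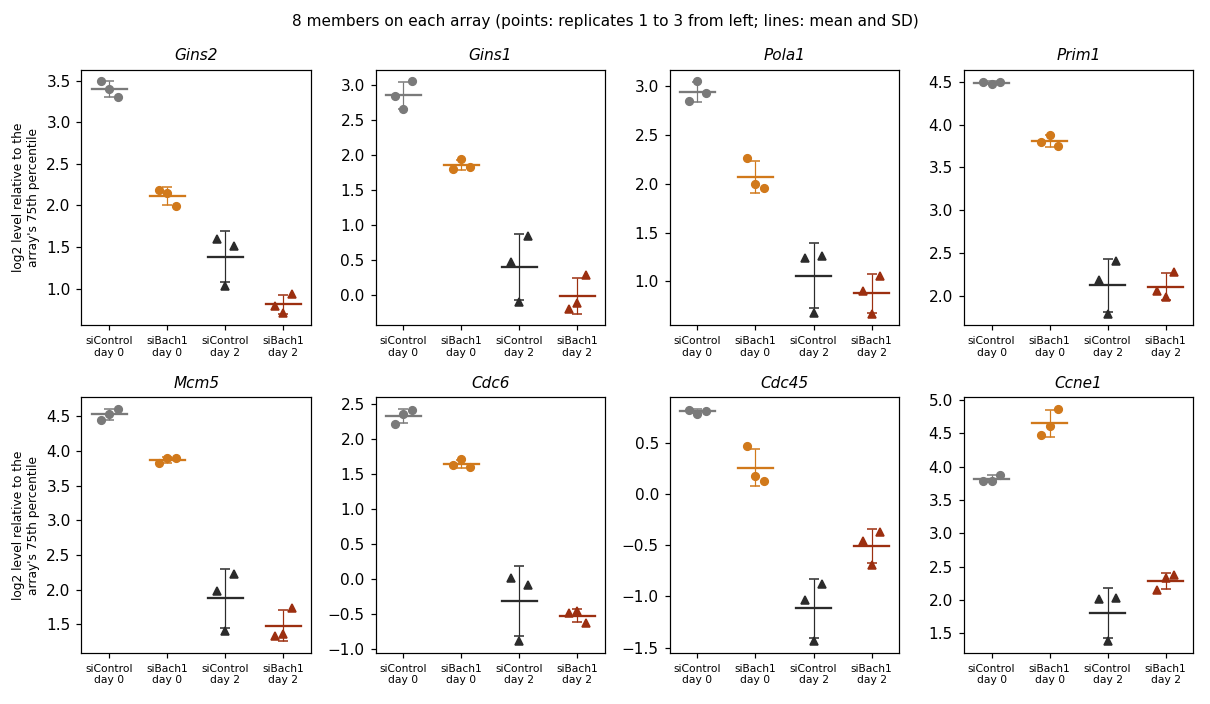
Log2 level relative to the array's 75th percentile of 8 members on the 12 arrays, on an axis of its own for each gene; points are replicates 1 to 3 from left to right, lines the group mean and bars the SD (n = 3). Gins2 is lower in siBach1 cells at both days, Cdc45 is lower at day 0 and higher at day 2, and Ccne1 is higher on all siBach1 arrays of both days.

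Nearly the whole group fell between day 0 and day 2, with far larger changes than silencing. The days also differ in medium and in time after transfection, so that these and differentiation cannot be told apart. From day 0 to day 2 of siControl cells all 44 members were lower, 43 passed by limma and 42 fell at least 2-fold, with a median of -2.04 (4.12-fold), against 0.01 over all genes tested. Of all genes, 30.1% passed as lower and 9.6% did so by at least 2-fold. The arrays of the days did not overlap in 43 members, as in 34% of all genes. In siBach1 cells all 44 members passed as lower, against 33.3% of all genes, 41 fell at least 2-fold, against 9.59%, and the arrays did not overlap in all 44, against 36.4%. The median there was -1.76 (3.38-fold), against -0.06 over all genes. These counts hold Ccne2, whose day 2 signal was not well above background on any array. Within replicate numbers the median fall was -1.85, -2.40 and -1.84 in siControl and -1.91, -1.84 and -1.57 in siBach1 cells. The siControl and siBach1 falls share no arrays, but both share theirs with the silencing comparisons.

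On the brightest probes, and leaving out Ccne2, Mcm10 fell most in siControl cells. It was at 3.32, 3.50 and 3.75 at day 0 and at 0.56, -0.43 and 0.96 at day 2, a log2 fold change of -3.16 (SE 0.31, limma adjusted p = 1.1e-05), and in siBach1 cells the change was -2.63 (SE 0.31). Orc1, the largest subunit of the origin recognition complex, followed with 0.62, 0.62 and 0.79 at day 0 and -1.91, -2.97 and -2.08 at day 2, a change of -3.0 (SE 0.22). In both genes siControl replicate 2 was the lowest of the day 2 arrays. Next came Tk1 at -2.70, Mcm5 at -2.65 and Cdc6 at -2.64 (SE 0.17, 0.19 and 0.20). A dimmer Cdc6 probe fell from a mean of 1.37 to -1.98, and the other Mcm10 probe from -1.15 to -3.22.

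By role, the loading genes Orc1, Orc6, Cdc6 and Cdt1 had a median of -2.49 in siControl and -2.19 in siBach1 cells, and the Mcm group -2.17 and -2.12. The chromatin genes Chaf1a, Chaf1b and Uhrf1 had -2.43 and -2.16. Polymerases, primase and Rpa had -1.90 and -1.53, the clamp and its loader -1.66 and -1.43, the nucleotide genes -1.95 and -2.02, and the Okazaki genes Lig1 and Fen1 -2.0 and -1.84. The genes of helicase activation (Cdc45, GINS, Cdc7 and Dbf4) had -2.02 and -1.30. No median is given for the G1/S regulators, because only a bound holds for Ccne2. No difference between these roles was tested. E2f1 fell by 1.47 in siControl and by 1.21 in siBach1 cells, and Ccne1 by 2.01 and 2.36. Ccne2 fell from a mean of -3.28 at day 0 to -5.63 measured at day 2 in siControl cells, where it was not well above background, so that the fall was at least 2.36-fold. In siBach1 cells the measured means were -3.70 and -6.53 and the fall was at least 1.88-fold. Ccne2 was tested only because it was well above background at day 0, and its day 2 signal is below the scanner's limit, so no p is given for it. Without Ccne2, 42 of 43 members passed as lower in siControl cells, 41 of them by at least 2-fold, and in siBach1 cells 43 passed and 40 did so by at least 2-fold. These bounds set the day 2 level at the lowest signal well above background on each array.

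The members short of a 2-fold fall were Gins3 and Gins4 with either siRNA and, in siBach1 cells, Cdc45. Gins3 was at 5.66, 5.65 and 5.19 at day 0 and at 5.26, 5.42 and 4.83 at day 2 in siControl cells, with overlapping arrays and a change of -0.33 (SE 0.22, limma adjusted p = 0.23). It was lower at day 2 in each of the 3 replicates, and with replicate as a block it passed (limma adjusted p = 0.0019). In siBach1 cells it was at 5.70, 5.78 and 5.33 and then at 5.12, 5.26 and 4.65, did not overlap and passed with -0.59 (SE 0.22, limma adjusted p = 0.038). The difference between these falls, -0.26 (SE 0.31), did not pass (limma adjusted p = 0.70). Gins4 fell by 0.93 and 0.85 (SE 0.08 each) on its brightest probe, short of 2-fold in both, and its other probe gave -1.0 and -0.94. Gins1 and Gins2 fell by 2.45 and 2.02 in siControl and by 1.87 and 1.30 in siBach1 cells. Cdc45 fell by 1.93 in siControl and by 0.77 in siBach1 cells on its first probe, and by 2.21 and 1.70 on its second.

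**Figure D5:**
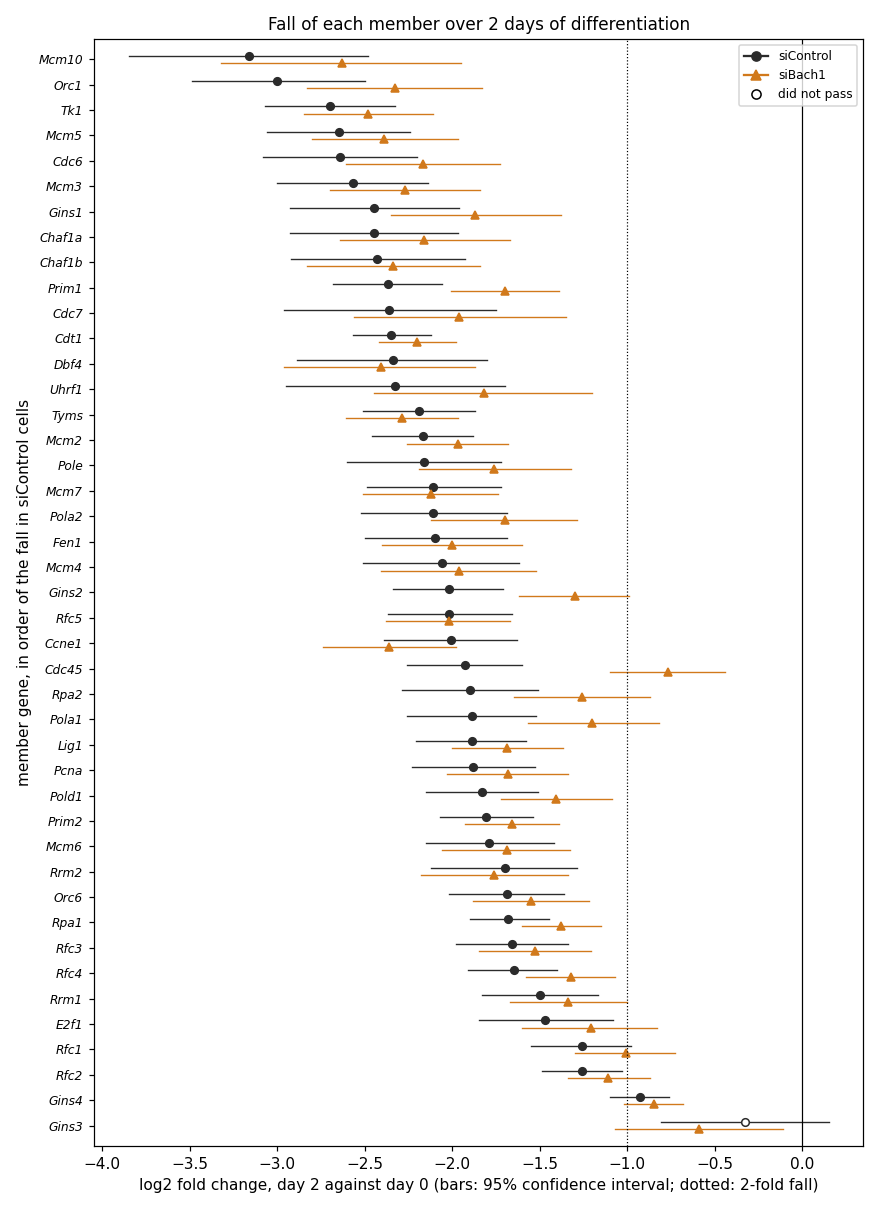
Log2 fold change of day 2 against day 0 for 43 members in siControl (circles) and siBach1 cells (triangles), with 95% confidence intervals from limma, in order of the fall in siControl cells; Ccne2 is left out because only a bound holds for it. Mcm10 falls most at -3.16, and Gins3 least at -0.33 with an open symbol because it did not pass. In 36 members, among them Cdc45, Gins2, Pola1 and Prim1, the triangle lies to the right of the circle, and only the Cdc45 difference passed.

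Probes of 1 gene mostly moved together. Of 24 members with several tested probes, 20 had 1 direction on all of them in the silencing effect at day 0, 15 at day 2, and 23 in differentiation with either siRNA. Of the 76 tested probes 70 were lower at day 0 in siBach1 cells, and 18 passed as lower, against 8.32% of all tested probes. At day 2, 53 were lower and 3 passed as lower, against 6.26% of all tested probes. Probes with the other sign than the brightest probe all missed the threshold. At day 0 they were of Gins4 (0.02), Prim2 (0.12) and Rfc5 (0.26), and a Dbf4 probe had 0.00 (SE 0.18). At day 2 they were of Cdc6 (0.08), Dbf4 (0.12), Gins4 (0.08), Mcm6 (0.10), Mcm7 (0.17), Pola2 (0.01), Prim2 (0.50, limma adjusted p = 0.069), Rfc5 (0.11 and 0.12) and Tyms (0.06). In siBach1 differentiation a probe each of Prim2 (-0.27) and Tyms (-0.81) did not pass, while their brightest probes did. A Cdc7 probe did not pass there either, but it was well above background on only 1 of the 3 siBach1 day 2 arrays. Rfc5 was the gene whose probes differed in direction in differentiation: its brightest probe gave -2.02 with either siRNA, A_55_P2727574 gave -0.71 and -0.46, and A_66_P133203 gave 0.29 and 0.15 (limma adjusted p = 0.59 and 0.79).

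Other genes of the pathway were described from lists. Of 40 further replication genes, 11 passed as lower and none as higher at day 0, with a median of -0.26, where 9.85% of all genes passed as lower and 10.1% as higher. Clspn, the checkpoint mediator Claspin, had -1.02 (SE 0.24, limma adjusted p = 0.015), Hells, a chromatin remodeller, -0.85, and Timeless, a fork protection gene, -0.81. At day 2 Dut, the dUTPase gene, was the only gene of this list that passed (-0.31), and the median was -0.16. That is 2.5% of the list, against 7.4% of all genes that passed as lower. In differentiation 36 of the 40 passed as lower in siControl and 35 in siBach1 cells, with medians of -1.29 and -1.23, against 30.1% and 33.3% of all genes, and Rrm2b, a ribonucleotide reductase gene, passed as higher in siBach1 cells (0.75). All 27 mitosis genes were lower in siBach1 cells at both days, with medians of -0.26 at day 0 and -0.41 at day 2. Of them only Foxm1 and Nuf2 passed at day 0 (7.41%), against 9.85% of all genes. Ccnb2, Cenpa and Ndc80 passed at day 2 (11.1%), against 7.4% of all genes. At day 0 all siBach1 arrays lay below all siControl arrays in 19 of the 27 genes, against 17.8% of all genes. At day 2 this held for 3 of them, against 19%. No difference in share was tested. Within replicate numbers the mitosis median at day 2 was -0.64, -0.01 and -0.55, so that replicate 2 stood apart there too. In differentiation the mitosis genes had medians of -2.07 in siControl and -2.21 in siBach1 cells, and all 27 passed.

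Regulators of the members moved in several directions. Of 16 genes of E2F factors, their partners and the DREAM complex, which represses cell cycle genes in resting cells, 4 passed as lower and 1 as higher at day 0, where 9.85% of all genes passed as lower and 10.1% as higher. The lower ones were the repressor E2F genes E2f6 (-1.35, SE 0.09, limma adjusted p = 1.5e-05) and E2f5 (-1.12) and the pocket protein genes Rb1 (-1.20, SE 0.12) and Rbl1 (-0.91), and the higher one was the activator E2f3 (0.36). At day 2 E2f2 (-0.85), Rb1 (-0.61) and E2f5 (-0.36) passed as lower and E2f3 (0.35) as higher, against 7.4% and 6.38% of all genes. Among 8 S-phase kinase and inhibitor genes, Ccna2, the cyclin A2 gene, changed by -0.76 and Cdk2 by -0.49 at day 0, and the inhibitor Cdkn1b was higher by 0.61 at day 0 and 0.49 at day 2. Ccna2 (-0.66) and the inhibitor genes Cdkn1a (-0.43) and Cdkn1c (-2.12) passed as lower at day 2, against 7.4% of all genes. Other Cdkn1a probes differed. A_55_P1986282 had day 2 means of -0.64 in siControl and -0.53 in siBach1 cells, and A_55_P1976204 had -2.68 and -2.73. The part of these regulators in the values of the replication genes was not tested.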

How the data were processed

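The 12 RNA samples were each run on a 1-colour Agilent SurePrint G3 mouse array. The authors deposited the scanner's Feature Extraction output, which gives each spot an intensity with its background already subtracted (the processed signal), and a table of 56745 rows of raw and normalized values. File headers name Feature Extraction 10.7.3.1, and the submitters' processing notes name 9.1. The authors made the normalized log2 values of the table by subtracting each array's 75th percentile and each probe's median, which was checked to within 0.00034. The methods name GeneSpring and Student's t-test.

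Control spots and the 76 to 110 outlier spots per array were removed, and repeated spots were averaged. None was saturated. The log2 processed signal minus the array's 75th percentile was used. To be tested, a probe had to be marked well above background by the scanner in every replicate of some group. The 4 groups were fitted together across all probes in limma 3.58.1 (R 4.3.3) with no block, and p-values were adjusted by Benjamini-Hochberg over all probes tested. Python 3.11.15, pandas 2.3.3, numpy 2.4.6 and matplotlib 3.10.9 were used. The fit was tested on simulated data. The precision is limited by having 3 arrays a group.

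Deviations from the group means correlated at 0.142 to 0.595 in the 18 pairs that share a replicate number, above the limit of 0.1 set for pairing. Pairs with different numbers had 0.1 to 0.265 on the same slide and -0.443 to -0.24 on different slides. The number coincides with the place on the slides, so these cannot be told apart. An alternative had replicate as a block. The members and gene lists were chosen with earlier results of these data known, so no test was made over a list. Values on every array are given, as far as needed, for members that stand for a role and for up to 5 members with the largest fall and 5 with the largest rise among those that passed in each silencing comparison, and other members by ranges and counts. Other probes are given where they differ in direction or call in the silencing or differentiation comparisons. The values of Gins3, Gins4 and Rfc4 beyond this rule, and the genes named from the other lists, were chosen after their values were seen. Alternatives were quantile normalization, the authors' values, normexp (offset 50) for the background, other filters, replicate or slide as a block, slides apart, only the arrays of a comparison, a robust trend prior, the mean of a gene's probes, the methods' t-test, a fold limit of 2, and each array left out. Protein sequences and siRNA target sites were not analysed here.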

Additional observations from a re-analysis of the deposited data

Results flagged for a closer look

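Cdc45 was singled out because its silencing effect differed between day 0 and day 2, by 1.16 on the log2 scale (SE 0.21, limma adjusted p = 0.018). It was lower on all 3 siBach1 arrays at day 0 and higher on all 3 at day 2 on probe A_51_P401451. The other probe, A_55_P2017750, had a difference of 0.51 (limma adjusted p = 0.16), and with the mean of both probes the difference was 0.83 (limma adjusted p = 0.030), while the day 2 rise of 0.61 became 0.35 and did not pass (limma adjusted p = 0.10). The cause of the disagreement between the probes was not tested.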

How the results depend on the processing

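The members' medians and the silencing values of the members that passed kept their direction in the fits run. Single members did not: without 1 array each, 27 to 41 members were lower at day 2 (36 with all arrays) and 3 to 13 negative in the difference between days (8). The medians moved by less than the spread between replicates (SD 0.191) under the alternatives, except in siControl differentiation, where slide 2 alone gave -1.84. Without 1 array each, they ranged from -0.45 to -0.39 (silencing at day 0), -0.37 to -0.09 (day 2), -2.16 to -1.85 (siControl differentiation), -1.87 to -1.71 (siBach1) and 0.05 to 0.34 (difference between days). The differentiation counts were 41 to 44 under every alternative.

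Of the members that passed, the count of 13 for silencing at day 0 became 23 with normexp or with a replicate block, 22 with a slide block, 20 with the robust prior, 24 with only the arrays of the comparison, 34 by the methods' t-test and 21 after Benjamini-Hochberg, 8 on slide 1, 5 with no filter, 1 with the 2-fold limit, and 6 to 7 without 1 array each. The count of 2 at day 2 became 4 with a replicate block and 5 with a slide block. With only its arrays it was 1 (Ccne2, not well above background at day 2). It was 0 on slide 1, with no filter, with the 2-fold limit or by the t-test after Benjamini-Hochberg. Without 1 array each it was 0 to 12. Over all probes, 6.26% passed as lower and 5.75% as higher in the main fit. These shares were 11.6% and 9.78% with a replicate block and 11.9% and 9.9% with a slide block. They were 3.25% and 3.74% with only its arrays and 4.12% and 4.37% on slide 1. No filter gave 1.05% and 1.26%, and the t-test after Benjamini-Hochberg gave 2.11% and 1.59%. Without 1 array each the shares were 2.91% to 5.76% and 3.2% to 4.55%. Cdc45 at day 2 passed in 7 of 13 alternatives (0.35 to 0.66), among them the methods' t-test without adjustment. Over all its fits the p-values, limma adjusted or from the t-test, were 0.011 to 0.17. With normexp Gins2 and Tyms passed and Cdc45 did not, and with the mean of probes Gins2 and Lig1 did. The count of 1 for the difference became 3 with a replicate block, a slide block or the robust prior. It was 2 with normexp or the mean of probes, 0 on slide 1 or with no filter, and 6 by the t-test. Without 1 array each it was 0 to 2. Over all probes, 2.39% passed as positive and 2.2% as negative in the main fit. With a replicate block these shares were 5.16% and 7.86%, with a slide block 5.25% and 8.44%, and with the robust prior 3.01% and 4.21%. They were 2.34% and 3.14% with normexp and 8.58% and 13.7% by the t-test. On slide 1 they were 0.266% and 0.111%, and with no filter 0.0601% and 0.0265%. Without 1 array each they were 0.961% to 2.34% and 0.654% to 1.57%. The replicate block changed no call that passed without it and added Gins3 in siControl differentiation. The share of all probes that passed moved too: at day 0, 8.32% lower and 8.8% higher became 12.5% and 15.7% by the t-test, 5.7% and 4.85% after Benjamini-Hochberg, 7.74% and 9.68% with normexp, 6.96% and 5.59% with only the arrays of the comparison, 6.46% and 7.5% on slide 1, and 2.55% and 1.83% with no filter. The causes were not tested. On slide 2 alone, with 1 array a group, there was no test.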
